A study of Gallus gallus with 9 samples.

Results

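Reduced representation bisulfite sequencing (RRBS) was used to read DNA methylation at single cytosines in sperm of adult Cobb broiler males (Gallus gallus), and 1286 cytosines were listed as differentially methylated between 2 groups of birds. The present account concerns the isolated cytosines of that list, those with no other listed cytosine within 500 bp on the same chromosome or contig. By this rule on position 478 of the 1286 listed sites (37.2%) were isolated. The other 808 sites, called neighboured sites here, lay in 212 loci and serve as the comparison.

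The control group (F0C) held 5 males from eggs incubated throughout at a relative humidity of 56% and a temperature of 37.8 °C. The heat-conditioned group (F0EHC) held 4 males from eggs that, on embryonic days 7 to 16, spent 12 h a day at a relative humidity of 65% and a temperature of 39.5 °C. Temperature and humidity differed together, so they cannot be told apart. All birds were of the same Cobb stock, were reared in the same way after hatch, and were sampled singly once mature, so each library is 1 bird. Sperm identity could not be checked here, because the site list holds no marker of cell type.

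In vertebrates most methylation sits on cytosines that are followed by a guanine (CpG), and the enzymes that copy it act on both strands. Neighbouring CpGs commonly share their state, and CpG-dense promoters are mostly free of methylation, while gene bodies and the ground between genes are mostly methylated. In sperm, each cell carries 1 copy of each locus, so a level between 0% and 100% describes a mixture of cells that read as methylated and cells that read as unmethylated. An isolated listed cytosine is one where the difference was called without a called neighbour. A neighbour can also be the other strand of the same CpG. Of the listed sites 347, all of them neighboured, had a listed site 1 bp away. Comparisons with neighboured sites are therefore not simply of lone CpGs against clusters of CpGs. Bisulfite turns an unmethylated cytosine into a base that is read as T, so a copy with T in the genome at that place also reads as unmethylated. This can hold for all sperm cells of a bird or for a part of them. Genotypes were not part of these data, and their part in any pattern below was not tested.

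All sites had been listed because an edgeR comparison of these same birds had called them, with at least 8 reads in every library. The differences between F0C and F0EHC below are therefore descriptions and carry no test. Gene names and genomic features beside a position are the nearest gene and feature that the study's site list assigns, and a name does not say that the gene's activity changed. Positions are in galGal5 as the files give them. The genome sequence of that build was not used here, so no sequence is printed.

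Isolated sites lay far from one another. They were found on 72 chromosomes and contigs. For 35 of them no other site was listed on the same contig. Among the remaining 443 the median distance to the nearest listed site was 108 kb, and at 229 it was over 100 kb. The threshold therefore mattered little, since only 17 sites had their nearest neighbour at over 500 and up to 1000 bp, and 19 at over 200 and up to 500 bp. Just inside the threshold lay 2 sites on chromosome 19, at 8840213 and 8840728, which were 515 bp apart and stood 24.4 and 24.2 points higher in F0EHC. Just outside lay 2 sites on a contig of chromosome 33 that were 500 bp apart, with differences of 6.17 and 7.17 points.

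By chromosome size, isolated sites made up 45.8% of the listed sites on chromosomes 1 to 5, 36.8% on chromosomes 6 to 10 and 34.8% on chromosomes 11 and above. On unplaced and random contigs the share was 41.0% (48 of 117), and on the Z chromosome it was 21.6% (8 of 37). Chromosomes 27 and 14 stood far apart. On chromosome 27, which held the most listed sites, only 25 of 161 (15.5%) were isolated, and on chromosome 14 it was 20 of 29 (69.0%). A single isolated site was on a contig assigned to the W chromosome, which male birds do not carry. It was covered by 30 to 69 reads in these males. Reads assigned there averaged 31.0% ± 16.4 in controls (SD, n = 5) against 61.9% ± 10.8 in conditioned males (SD, n = 4). Where these reads came from was not tested.

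Read depth was lower at isolated sites in every bird. At isolated sites the median depth per library ranged from 33 reads, in F0C replicate 1, to 44 reads, in F0C replicate 2. At neighboured sites it ranged from 38 to 53 reads. The mean of the library medians was 38.8 ± 3.61 reads against 47.6 ± 4.98 reads (SD, n = 9), a difference of -8.78 reads that was negative in 9 of 9 libraries (exact sign-flip permutation p = 0.00391, the smallest this test can give, adjusted p = 0.0156 over 4 comparisons). Against 1 site per neighboured locus the difference was -4.72 reads. All birds were read at the same sites. In this and the other comparisons over libraries the p-value thus describes how alike the birds were at these sites, and leaves out variation among sites. At this depth 1 read moves a value by 2 to 3 percentage points. Very deep positions were rare among isolated sites. A mean depth over 100 reads was found at 2 isolated and at 53 neighboured sites.

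The deepest isolated site, at position 2605 of an unlocalised contig of chromosome 1, averaged 321 reads per library, with 102 to 688 reads. It was methylated at 95.4% to 100% in all birds except F0EHC replicate 2, at 63.8%. The group difference of -9.16 points came from that bird (97.5% ± 1.72 in controls, SD, n = 5, against 88.3% ± 16.4 in conditioned males, SD, n = 4), and without it the difference was -0.986 points. The next deepest, on chromosome 17 at 7063945, was nearly unmethylated, at 1.94% to 4.04% in 4 controls, 18.9% in F0C replicate 5 and 0% to 1.64% in F0EHC. Every conditioned male lay below every control there, although the levels of both groups apart from F0C replicate 5 differed by only a few points. The difference was -5.09 points with all birds and -1.85 points without F0C replicate 5.

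Isolated sites were divided evenly by direction. Of the 478 sites 242 (50.6%) were more methylated in F0EHC and 236 were less methylated. Of the neighboured sites 65.1% were higher (526 of 808), and of all listed sites 59.7%. Neighboured sites were counted singly here, although they lay in 212 loci, and no share by locus is given. This split was not tested, because direction belongs to the contrast for which sites were listed. On chromosome 13 isolated sites were 4 higher and 13 lower, and on chromosome 10 they were 14 higher and 6 lower. On chromosome 27 they were 13 higher and 12 lower.

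Averaged over the higher sites, the controls reached 10.8% ± 0.79 (SD, n = 5) and the conditioned males 32.0% ± 1.89 (SD, n = 4), a difference of 21.2 points. By library it lay between 9.77% and 11.9% in F0C and between 29.5% and 34.0% in F0EHC. Over the lower sites the controls reached 33.3% ± 0.623 (SD, n = 5) and the conditioned males 11.5% ± 0.79 (SD, n = 4). By library these were 32.6% to 34.3% and 10.9% to 12.7%. No single bird stood apart in these means. At neighboured higher sites the library means were more spread, from 5.25% to 12.2% in F0C and from 26% to 34.8% in F0EHC. At neighboured lower sites the SD was 2.4 points in F0C but 0.774 points in F0EHC, about that of isolated sites. Neighboured sites were counted singly in these means, although they lay in 212 loci.

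The median isolated site moved between a nearly unmethylated and a partly methylated state. The median over higher sites was 5.73% for controls and 27.0% for conditioned males. Over lower sites it was 28.1% for controls and 6.19% for conditioned males. The group with less methylation had a mean under 5% at 114 of the higher sites (47.1%) and at 107 of the lower sites (45.3%). At other isolated sites both groups were partly methylated. The less methylated group had a mean of at least 20% at 52 higher (21.5%) and 41 lower isolated sites (17.4%), against 9.51% and 6.74% of neighboured sites. Differences ranged from 3.44 to 50.6 points among higher sites and from -50.7 to -5.09 points among lower ones.

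A bird was said to carry the difference when it belonged to the group with the higher mean and lay above the highest bird of the other group. All 4 conditioned males carried it at 71 higher sites, and all 5 controls carried it at 56 lower sites, so that groups did not overlap at 127 isolated sites (26.6%). Over all listed sites 12.5% were higher in F0EHC without overlap and 8.09% were lower without overlap, and of the isolated sites the corresponding shares were 14.9% and 11.7%. Among neighboured sites 17.1% were without overlap in all. With at least 20 reads in every library the shares were 27.2% of 305 isolated and 13.5% of 617 neighboured sites, and with at least 30 reads 28.1% of 171 and 11.5% of 418. The sites were listed for this contrast, so these shares were not tested. Neighboured sites were counted singly in them, although they lay in 212 loci, and no share without overlap was computed by locus.

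**Figure D1:**
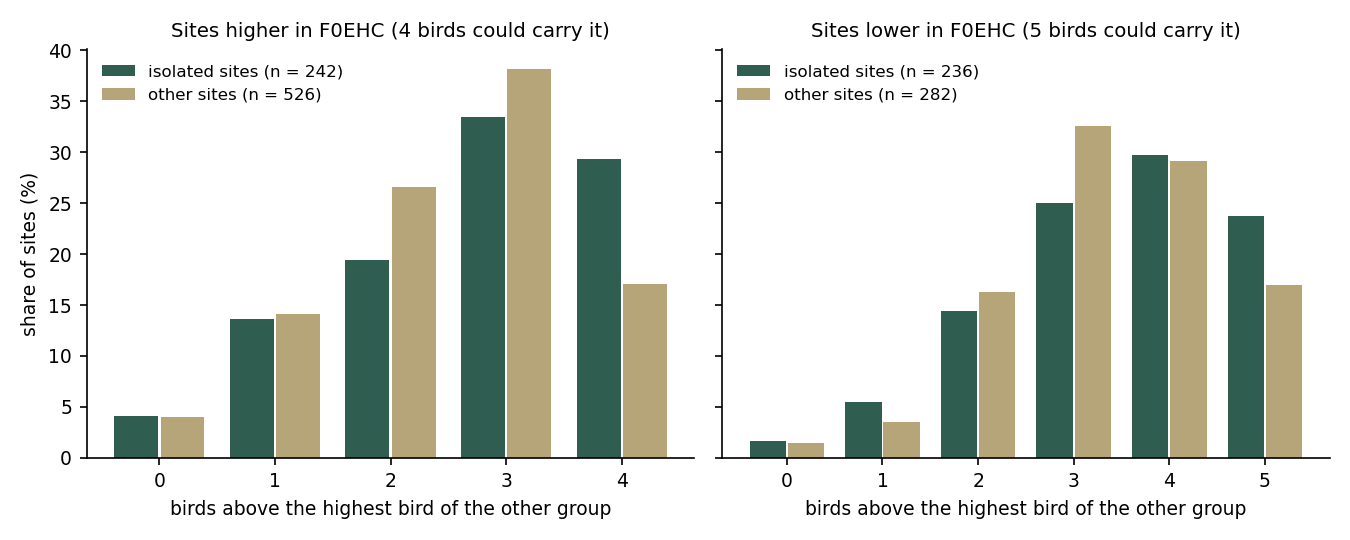
Share of sites (y axis, percent) by the number of birds of the higher group that lay above the highest bird of the other group (x axis), for isolated (green) and neighboured (sand) sites, with sites higher in F0EHC on the left and lower on the right. All 4 conditioned males carried the difference at 29.3% of isolated higher sites against 17.1% of neighboured ones, and all 5 controls at 23.7% of isolated lower sites against 17.0%. Neighboured sites are counted singly.

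At most isolated sites all birds of the group, or all but 1, carried the difference. This held for 62.8% of the higher sites and 53.4% of the lower sites, against 55.3% and 46.1% of neighboured sites. At the other end, 33 higher and 13 lower sites were carried by 1 bird, and 10 higher and 4 lower sites by none. The birds took similar parts. Each F0EHC bird carried between 154 (replicate 3) and 172 (replicate 2) of the higher sites, and each F0C bird between 158 (replicate 3) and 168 (replicate 4) of the lower sites. As the only carrier, F0EHC replicate 1 was found at 12 sites, F0EHC replicate 2 at 9 and F0C replicate 1 at 0. Removing 1 bird took away over 50% of the difference at 76 isolated sites (15.9%) and at 18.4% of neighboured sites, with F0EHC replicate 1 as that bird at 16 of the 76.

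The separation was narrow at most of the 127 sites. The gap between the lowest bird of one group and the highest of the other had a median of 3.82 points, was under 5 points at 70 sites and at least 10 points at 28. The widest gap, 25.6 points, was on chromosome 23 at 1109211, an intergenic site with a median of 16 reads. Controls stood there at 27.8%, 28.0%, 26.7%, 30.0% and 9.52%, and conditioned males at 55.6%, 80.0%, 56.2% and 68.8%. Both groups were thus partly methylated, at 24.4% ± 8.4 (SD, n = 5) and 65.1% ± 11.6 (SD, n = 4).

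The higher sites without overlap that differed most were mostly partly methylated in F0C already. At the site with the largest difference, position 386 of an unplaced contig (median 23 reads), controls read 31.6%, 0%, 0%, 0% and 18.5%, and conditioned males 77.3%, 69.0%, 34.8% and 61.5%. At the promoter of gga-mir-1703, a chicken microRNA gene, the site at chromosome 5 position 58128542 (median 46 reads) was at 31.9%, 52.6%, 28.3%, 37.0% and 0% in controls and at 68.3%, 80.5%, 71.7% and 63.9% in conditioned males. The group means were 30.0% ± 19.2 (SD, n = 5) and 71.1% ± 7.03 (SD, n = 4). The conditioned males lay close together, while a single control was unmethylated on 57 reads.

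In an intron of RXRA, a nuclear receptor that pairs with the retinoid, vitamin D and thyroid hormone receptors, the site at chromosome 17 position 7759037 (median 19 reads) was nearly unmethylated in F0C. It read 5.26% in F0C replicate 1 and 0% in the other 4 controls, and 30.0%, 52.2%, 47.4% and 33.3% in conditioned males. Here the groups differed as unmethylated against partly methylated (1.05% ± 2.35, SD, n = 5, against 40.7% ± 10.7, SD, n = 4). An intronic site of DCTN1, a subunit of the dynactin complex that links cargo to the dynein motor, at position 57196 of a contig of chromosome 4 (median 16 reads), read 0%, 2.7%, 0%, 5.88% and 18.2% in controls and 41.2%, 53.8%, 30.8% and 45.8% in conditioned males.

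At 2 more of these sites the conditioned males lay within a few points of each other. On chromosome 1 at 180008695, between genes (median 53 reads), they read 60.4%, 60%, 59.0% and 60.8%, against 28.8%, 0%, 17.9%, 22.6% and 40% in controls. The standard deviation was 0.782 points in F0EHC and 14.8 in F0C. At the promoter of ANAPC2, a core subunit of the anaphase-promoting complex that drives exit from mitosis, the site at chromosome 17 position 2285495 (median 26 reads) read 55.6%, 60%, 57.7% and 63.6% in conditioned males and 34.8%, 0%, 23.3%, 16.7% and 36.6% in controls. In both, the controls were spread from 0% upward and F0C replicate 2 was the bird at 0%. Each also had another listed site not far beyond 500 bp that was higher in F0EHC. On chromosome 1 it was at 180009506, 811 bp away, with a difference of 30.7 points. On chromosome 17 it was at 2284887, 608 bp away, with a difference of 43.1 points and groups that overlapped.

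The other 4 of the 10 higher sites had differences of 37.1 to 40.7 points. They were the site with the widest gap, a promoter site on chromosome 23 at 5307427, a site at a transcript end on chromosome 6 at 17490643 and an intergenic site near TMEM222 on chromosome 23 at 1951730. The last was the most methylated of the set, where the controls averaged 43.7% ± 17.8 (SD, n = 5) and the conditioned males 80.8% ± 7.39 (SD, n = 4) on a median of 15 reads.

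**Figure D2:**
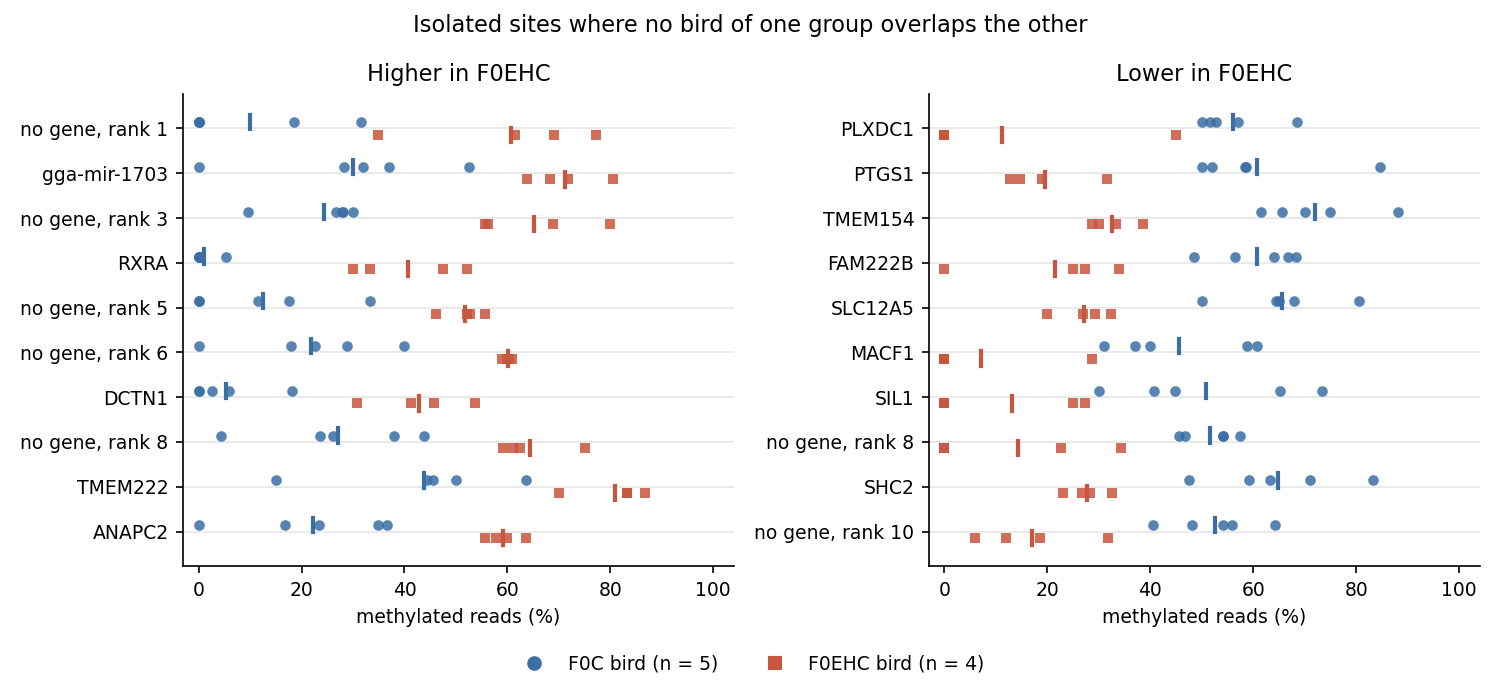
Methylated reads (x axis, percent) of each F0C bird (blue circles, n = 5) and F0EHC bird (red squares, n = 4) at the 10 higher and the 10 lower isolated sites without overlap that differed most, labelled by the nearest gene, with vertical bars at the group means and points that can cover each other at 0%. At RXRA 4 controls lay at 0%, and at PLXDC1 3 conditioned males did.

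Over the 56 lower sites without overlap the mean of the controls ranged from 5.84% to 95.5%, with a median of 33.8%, and the 10 that differed most lay between 45.5% and 72.1%. The PLXDC1 site, intronic on chromosome 27 at 4513573 (median 21 reads), read 57.1%, 50%, 52.8%, 68.4% and 51.6% in controls, 45% in F0EHC replicate 2 and 0% in the other 3 conditioned males. That bird lay only 5 points below the lowest control, so the difference of -44.7 points came mostly from 3 of 4 birds. In an intron of MACF1, a large protein that links actin filaments and microtubules, the site on chromosome 23 at 5408261 (median 29 reads) had the same form. F0EHC replicate 2 read 28.6% and the other conditioned males 0%, against 60.7%, 58.8%, 31.0%, 40% and 37.1% in controls.

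At other lower sites all conditioned males kept some methylation. At the end of a PTGS1 transcript, whose product is the cyclooxygenase that starts prostaglandin synthesis, the site on chromosome 17 at 9255233 (median 25 reads) read 58.6%, 50%, 58.3%, 84.6% and 52.0% in controls and 12.8%, 19.0%, 31.6% and 14.7% in conditioned males. In an intron of SLC12A5, the potassium and chloride cotransporter of neurons, the site on chromosome 20 at 10789072 (median 31 reads) read 68.0%, 50%, 80.6%, 64.5% and 65.0% against 32.3%, 20%, 26.9% and 29.3%. The intronic site of SHC2, an adaptor protein of receptor tyrosine kinases, on chromosome 28 at 2664068 (median 30 reads) averaged 64.9% ± 13.3 (SD, n = 5) against 27.6% ± 3.9 (SD, n = 4). These were shifts between partly methylated states, with the conditioned males within 20 points of each other.

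The promoter site of TMEM154, on chromosome 4 at 34128747 (median 20 reads), was the most methylated of the lower set in controls, which averaged 72.1% ± 10.3 (SD, n = 5), against 32.6% ± 4.39 in conditioned males (SD, n = 4). In an intron of SIL1, the exchange factor of the endoplasmic reticulum chaperone BiP, the site on chromosome 13 at 2508340 (median 23 reads) read 40.7%, 44.7%, 65.2%, 30.0% and 73.3% in controls. Conditioned males there read 25% and 27.3% in replicates 1 and 2 and 0% in replicates 3 and 4. An intergenic site on chromosome 20 at 12697544 split them in the same way, with 0% in replicates 1 and 3, 22.6% in replicate 2 and 34.3% in replicate 4.

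Stepwise levels were rare. A site was called stepwise when every bird read at most 10%, 40 to 60%, or at least 90%, and at least 1 bird read over 10%. This held at 14 isolated sites (2.93%) and 29 neighboured sites (3.59%). Of the 14 isolated sites 13 joined levels near 0% and near 50%, 1 joined levels near 50% and near 100%, and 0 joined all 3 steps or 0% and 100%. At 10 of the 14 a single bird read over 10%. With at least 20 reads in every library 2 of 305 isolated sites (0.656%) and 20 of 617 neighboured sites (3.24%) were stepwise. Neighboured sites were counted singly in these shares, which were not tested.

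The levels of single birds were spread over the whole range, with the most near 0%. They are pooled over sites and carry counting error, so they cannot show whether levels at a single site are stepped. Of the 4302 values at isolated sites 47.6% were near 0%, 12.6% near 50%, 1.35% near 100% and 38.4% elsewhere. At neighboured sites the shares were 54.7%, 9.72%, 0.481% and 35.1%. In bins of 5 points the isolated values fell from 40.5% in the lowest bin to 4.18% at 10 to 15%, rose to 6.74% at 25 to 30% and stood at 3.65% at 50 to 55%. The highest bin, from 95%, held 0.976% of isolated and 0.206% of neighboured values.

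**Figure D3:**
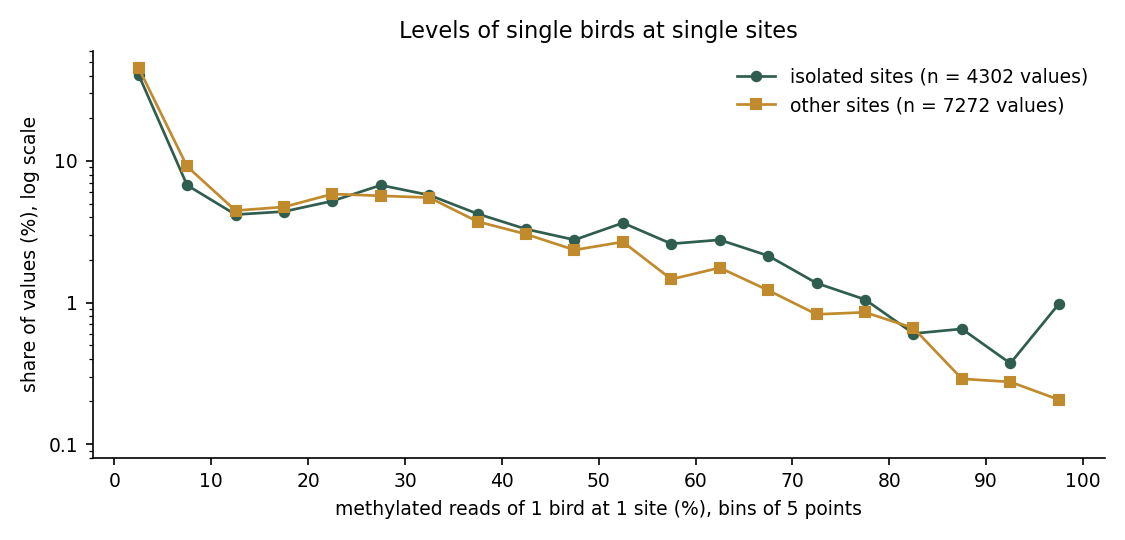
Share of values (y axis, percent, log scale) by the methylation level of 1 bird at 1 site (x axis, percent, bins of 5 points) for isolated (green circles) and neighboured (ochre squares) sites. Isolated sites have 40.5% of their values in the lowest bin, 6.74% at 25 to 30% and 0.976% in the highest bin.

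Levels near 100% were more frequent at isolated sites. Per library they made up 1.35% ± 0.433 of isolated and 0.481% ± 0.341 of neighboured sites (SD, n = 9), a difference of 0.867 points that was positive in 7 of 9 libraries (exact sign-flip permutation p = 0.0156, adjusted p = 0.0312). Against 1 site per neighboured locus the difference was 0.405 points and the exact p was 0.105, so the call rests on counting neighbours singly. These values came from 18 isolated sites (3.77%) with at least 1 bird at 90% or more, and 20 neighboured sites (2.48%) had such a bird. A site near 100% in most birds, such as the deepest isolated site, counts again in each library. The p-value therefore does not cover how few sites there were. In F0C the difference was 1.23 points and positive in 5 of 5 birds, and in F0EHC it was 0.418 points and positive in 2 of 4. Sites higher in F0EHC made up 50.6% of isolated and 65.1% of neighboured sites. The comparison was not split by direction, so it cannot separate isolation from this mix.

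For levels near 50% the shares were 12.6% ± 0.861 and 9.72% ± 2.97 (SD, n = 9). The difference of 2.88 points was positive in 7 of 9 libraries but missed the threshold (exact sign-flip permutation p = 0.0508, adjusted p = 0.0677). It was 5.08 points in F0C, where it was positive in 5 of 5 birds, and 0.119 points in F0EHC, positive in 2 of 4. Without F0EHC replicate 1 it was 3.68 points (exact p = 0.0156), and without F0EHC replicate 4 it was 3.32 points (exact p = 0.0469). At neighboured sites the share near 50% moved with the group, at 7.85% in F0C and 12.1% in F0EHC, while at isolated sites it was 12.9% and 12.2%. Sites higher in F0EHC made up 65.1% of neighboured but 50.6% of isolated sites. The comparison of shares near 50% was not split by direction, so it cannot separate isolation from this mix. The part of the mix in the group shift was not tested. The mean deviation of birds from the median of their own group was 8.41 ± 0.526 points at isolated and 8.07 ± 1.72 points at neighboured sites (SD, n = 9), a difference of 0.34 ± 1.67 points (exact sign-flip permutation p = 0.559, adjusted p = 0.559).

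The stepwise site with the largest difference was at the promoter of MAP7D1, a microtubule-associated protein, on chromosome 23 at 4106685 (median 28 reads). It read 46.2%, 51.9% and 48.6% in F0EHC replicates 1, 2 and 4, 0% in F0EHC replicate 3, 44.8% in F0C replicate 3, and 0%, 0%, 0% and 3.57% in the other controls. Birds of both groups thus stood on both steps. The only stepwise site without an unmethylated bird was at a transcript end of MEIS1, a homeobox transcription factor, on chromosome 3 at 10574421 (median 22 reads). All controls read 92.6% to 100%, and conditioned males read 100%, 40.9%, 96.3% and 50%. The difference of -25.2 points was -14.9 points without F0EHC replicate 2.

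In introns of BORA, an activator of Aurora A kinase, and of SKP2, a substrate receptor of a ubiquitin ligase that acts in the cell cycle, 2 birds of 1 group stood near 50%. At BORA, on chromosome 1 at 156272217 (median 16 reads), F0EHC replicates 2 and 3 read 42.9% and 48.4% and all other birds 0%. At SKP2, on the Z chromosome at 10955373 (median 14 reads), F0C replicates 2 and 5 read 58.8% and 42.9%, F0C replicate 3 read 10%, and all others read 0%. The groups overlapped at 0% in both. Without F0EHC replicate 3 the difference at BORA was 14.3 points in place of 22.8, and without F0C replicate 2 that at SKP2 was -13.2 points in place of -22.3.

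At the other 10 stepwise sites 1 bird stood between 40.3% and 57.9% and no other exceeded 7.69%. It was a conditioned male at 7 of them, among them GNG12, a G protein gamma subunit, on chromosome 8 at 28826461, where F0EHC replicate 4 read 57.9% and all 8 other birds 0%, so that the difference was 14.5 points with that bird and 0 without it. In an intron of TM6SF2, a membrane protein of lipid export, on chromosome 28 at 3552839, F0EHC replicate 1 read 50% and the others at most 6.25%, and the difference was 15.4 points with that bird and 3.84 points without it. At the promoter of CHRD, which encodes the bone morphogenetic protein antagonist chordin, on chromosome 9 at 15989249, F0EHC replicate 3 read 40.7% and the others 0%. It was a control at the other 3, among them RGMB, a co-receptor of bone morphogenetic proteins, on the Z chromosome at 51332752, where F0C replicate 4 read 45.7%.

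**Figure D4:**
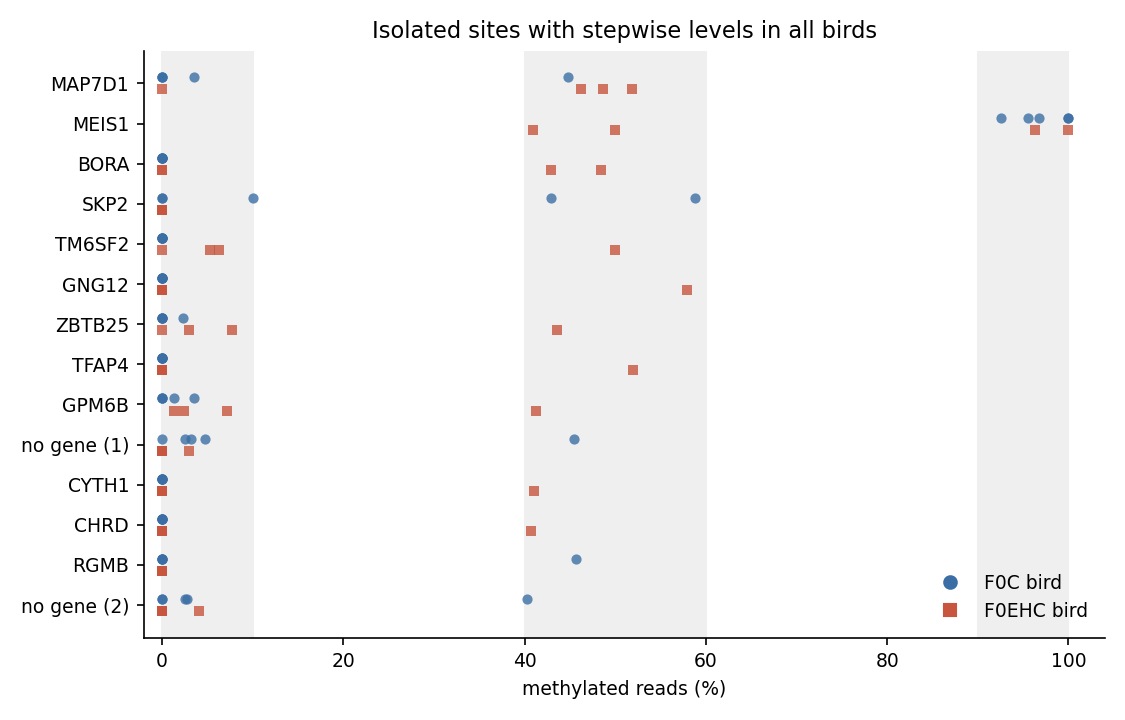
Methylated reads (x axis, percent) of each F0C bird (blue circles) and F0EHC bird (red squares) at the 14 stepwise isolated sites, labelled by the nearest gene and ordered by the size of the group difference, with grey bands at the 3 steps and points that can cover each other at 0%. At 10 of the 14 sites a single bird stands near 50%, and only MEIS1 has birds near 100%.

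A more frequent discontinuous form was a single bird without any methylated read in a group that was otherwise methylated. This form was defined after the values were seen. At 51 isolated sites (10.7%) at least 1 bird read exactly 0% while all other birds of its group read at least 20%, in F0C at 22 sites and in F0EHC at 30. Among neighboured sites it was 7.55% (61 of 808). The unmethylated birds had a median of 31 reads there, from 12 to 75. With at least 20 reads in every library the shares were 9.84% of isolated and 6.97% of neighboured sites. Every bird took part, from 2 sites each for F0C replicates 1 and 3 to 10 sites for F0EHC replicate 3.

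The 7 sites whose unmethylated bird was read most deeply, on 61 to 75 reads, are given here. On chromosome 33 at 361915, F0EHC replicate 1 had 0 methylated of 75 reads, which allows a level of up to 4.0%, while the other conditioned males read 26.5%, 20% and 26.5% and controls 34.8% to 60.8%. On chromosome 5 at 53937018, F0EHC replicate 3 had 0 of 75 reads, against 33.0%, 32.1% and 53.6% in the other conditioned males and 34.9% to 74.2% in controls. On chromosome 19 at 5847421, in an intron of FAM222B, F0EHC replicate 1 had 0 of 65 reads (up to 4.62%) against 33.9%, 27.3% and 25% in its group and 64.1%, 56.5%, 66.7%, 68.3% and 48.4% in controls. On chromosome 4 at 5296031, F0EHC replicate 2 had 0 of 65 reads, against 41.4%, 74.6% and 65.8% in its group and 61.0% to 87.2% in controls, so that the groups overlapped. On chromosome 1 at 44898014, F0EHC replicate 3 had 0 of 62 reads, against 36.7%, 25.8% and 35.7% in its group and 19.0% to 64.6% in controls. On chromosome 14 at 2821747, F0C replicate 4 had 0 of 62 reads, the other controls read 20.4%, 27.0%, 27.6% and 48.9%, and conditioned males read 62.5%, 57.4%, 26.2% and 50.8%. On chromosome 8 at 20398655, F0C replicate 4 had 0 of 61 reads (up to 4.92%), the other controls read 26.1%, 47.4%, 31.0% and 25.5%, and conditioned males read 58.1% to 67.2%. Without the unmethylated bird the difference on chromosome 4 went from -27.3 to -12.2 points, that on chromosome 5 from -29.2 to -19.3 points and that on chromosome 1 from -24.3 to -16.1 points. At the other 4 sites it was at least 18.3 points in size without that bird. Over all 51 sites, which gave 52 pairs of site and bird, the sign turned in 0 pairs and under 50% of the difference was left in 1. In 34 of the 52 pairs the difference was larger without the unmethylated bird, while at the 7 sites above it was smaller. Limits and levels cover counting error only, since reads copied from 1 molecule are not separated in these counts.

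At 81 isolated sites (16.9%) all birds of the less methylated group read exactly 0%, at 39 in F0C and at 42 in F0EHC. The share was 8.42% at neighboured sites. With at least 20 reads in every library it was 13.1% of isolated and 6.81% of neighboured sites. At 24 of the 81 the groups did not overlap, where 26.6% of all isolated and 20.6% of all listed sites were without overlap. BAG3, a co-chaperone of heat shock protein 70, was the only one of 80 genes in 5 lists (heat shock and chaperones, innate immunity, DNA methylation and chromatin, the miR-200 axis, and hypothalamic stress and thermoregulation) that was assigned to an isolated site. That intronic site, on chromosome 6 at 30302762 (median 36 reads), read 0% in all controls and in F0EHC replicate 2, and 8.0%, 5.56% and 13.9% in F0EHC replicates 1, 3 and 4. The difference was 6.86 points, and 4.52 points without F0EHC replicate 4.

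The region table lists 6428 regions found by metilene, which joins neighbouring CpGs with a like difference, with a mean level per bird. The study reports far fewer differentially methylated regions than these, so a listed region need not be one of them. Of the 478 isolated sites 122 (25.5%) lay inside a listed region, each in a region of its own, against 66.2% of neighboured sites. The share was 27.3% for higher and 23.7% for lower isolated sites. At isolated sites outside regions the median distance to the nearest region was 8006 bp where the chromosome had one, and 40 lay within 100 bp. Sites inside and outside had the same median depth of 39 reads. No overlap between groups was found at 29.5% of those inside and 25.6% of those outside. For neighboured sites it was 16.3% inside and 18.7% outside, and over all listed sites 20.6%.

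The region moved less than its isolated site. The site and the region had the same sign in 117 of 122 cases (95.9%), and both were drawn from the same reads. The median absolute difference was 19.2 points at the sites and 7.5 points for their regions, while it was 4.55 points over all listed regions. The median ratio of region to site difference was 0.413, against 0.781 for neighboured sites and their regions. The region difference reached 10 points in 29.5% of cases and exceeded that of the site in 2 cases. For neighboured sites the region reached 10 points in 81.9% of cases. These cases were 535 sites in 120 regions. A region thus counted once for each of its listed sites in the 0.781 and the 81.9%. A region of isolated sites had a median length of 73 bp. No other listed cytosine lay within 500 bp, so such a region mostly averages 1 listed cytosine with unlisted ones. A region difference below that of the site, and the contrast with neighboured sites, are thus in part built into the rule.

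**Figure D5:**
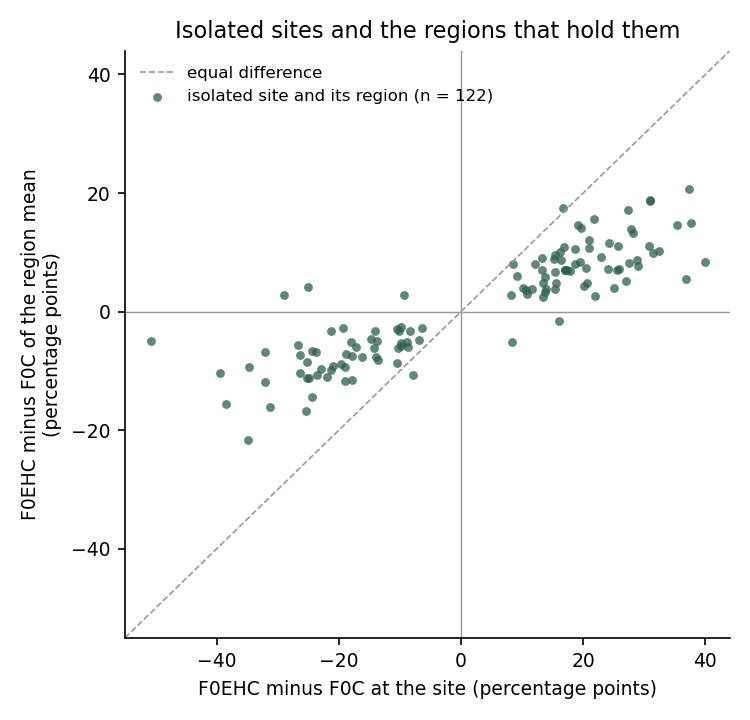
Difference of group means (F0EHC minus F0C, percentage points) at an isolated site (x axis) and in the region that holds it (y axis), 1 point for each of 122 sites, with a dashed line where both are equal. Nearly all points lie nearer to 0 on the y axis than on the x axis, and 117 of 122 have the same sign.

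The isolated site with the largest difference inside a region was the last base of its region. It lay at the promoter of DDHD2, an intracellular phospholipase, on chromosome 22 at 2299651, in the region 2299622 to 2299651 (ENSGALG00000042181.1). F0C replicates 1 to 4 read 100% on 15, 12, 9 and 14 reads, F0C replicate 5 read 24.3% on 37 reads, and conditioned males read 27.7%, 43.2%, 23.8% and 42.1% on 65, 44, 21 and 38 reads. All birds at 100% had fewer reads than any other bird. The region lay far below the site, with a mean of 8.31% ± 3.33 in controls (SD, n = 5) against 3.42% ± 1.17 in conditioned males (SD, n = 4). The relation of depth to level at this site was not tested.

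At SLC12A5 the region around the site averaged 58.7% ± 5.31 in controls (SD, n = 5) against 43.1% ± 5.14 in conditioned males (SD, n = 4), and at TMEM154 it stood at 40.5% ± 13.5 (SD, n = 5) and 30.2% ± 10.9 (SD, n = 4). On chromosome 18 at 8617419 (median 49 reads) the site read 35%, 84.6%, 37.7%, 39.4% and 0% in controls and 82.1%, 49.1%, 95% and 90.7% in conditioned males, while its region stood at 55.3% ± 4.01 (SD, n = 5) and 63.7% ± 4.73 (SD, n = 4). Birds that differed widely at the single cytosine were alike in the region mean. At ANAPC2 the site was the first base of its region, which stood at 62.3% ± 5.22 (SD, n = 5) and 67.9% ± 2.54 (SD, n = 4). Outside regions the largest differences were at position 386 of the unplaced contig named above and, in an exon, on chromosome 21 at 4393635 (median 27 reads). There controls read 0%, 32.3%, 0%, 25.9% and 78.4%, and conditioned males 75%, 60%, 90% and 76.0%, so that F0C replicate 5 lay within the conditioned males.

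At 5 isolated sites the region had the opposite sign. On chromosome 9 at 23539309 the site differed by -28.9 points and its region by 2.76 points. On chromosome 14 at 13120456 the site differed by -25.1 points and its region by 4.16 points. The other 3 pairs of site and region differed by 16.1 and -1.53 points on chromosome 23, by -9.27 and 2.86 points on chromosome 28, and by 8.33 and -5.06 points on chromosome 8.

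When the counts of all 1286 listed sites were refitted with edgeR's quasi-likelihood test, 0 isolated sites had an adjusted p under 0.05 (smallest adjusted p = 0.108), as did 0% of all listed sites. At an unadjusted p under 0.05 there were 203 isolated sites (42.5%), where all listed sites had 45%. The likelihood ratio test of edgeR placed 225 isolated sites (47.1%) under an adjusted p of 0.05, where all listed sites had 48.6%. Isolated sites thus lay near the background of the list in both. The sites were listed on these birds, so the refit is a description. It also took library sizes and dispersion, the spread between birds, from the listed sites alone. Its counts therefore cannot show whether the authors' calls hold.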

How the data were processed

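RRBS libraries of sperm DNA from 9 birds were prepared with the Zymo-Seq kit, and a NovaSeq sequenced both ends of each fragment. Trim Galore, Bismark, Bowtie, edgeR and galGal5 appear in the submitters' processing notes, and metilene in the study for regions. The methylated and unmethylated read counts of each site were deposited by the authors without normalization. The percent of methylated reads was computed by the authors from these counts, and the percent of each region is a mean per library made by the authors, with unknown depth. Of the region values, 31 in controls held a spreadsheet error and were left out. All columns were matched to a bird through the number that its description gives, so 0 columns stayed without a sample. Libraries held 16676 to 22071 reads over the isolated sites.

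Isolation used all listed sites. Libraries were compared by a two-sided exact sign-flip permutation test over the 9 birds on the difference between isolated and neighboured sites within each bird, with Benjamini-Hochberg adjustment over 4 comparisons. The sites were the same in every bird, so variation among sites is not part of these p-values. All sites were refitted with edgeR 4.0.16 on methylated and unmethylated counts. Library sizes and dispersion were taken over listed sites alone. This fit was tested on simulated data in which the changed sites were all raised in F0EHC. That trial does not cover sites lower in F0EHC or a list of sites already called. Members and gene lists were chosen with earlier results of these data known. Named were the 10 higher and 10 lower sites with the largest share of carrying birds (ties by difference), the 6 stepwise sites of largest difference, the 4 inside and 2 outside regions of largest difference, the 2 deepest, and sites assigned to a gene of the lists. Sites named beyond that (the threshold neighbours, the W contig site, CHRD, RGMB, the birds at 0% and the regions of opposite sign) were chosen after their values were seen. Gene names came from the study's site list and were used as names alone.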

Additional observations from a re-analysis of the deposited data

Results flagged for a closer look

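Groups of birds with a value far from the rest of the group, by Dixon's criterion, were sought in the library measures and at the 32 named sites. Of 76 groups 12 were found, and 0 of the library measures was among them. Chance gives about 1 in 20 in groups that were not selected. The named sites were chosen by these same values, stepwise sites among them, so the count cannot be compared with that rate. Sites with many birds at 0% meet this criterion readily.

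Among controls, the outlying bird read 9.52% on chromosome 23 at 1109211 (F0C replicate 5), 5.26% at RXRA (F0C replicate 1), 84.6% at PTGS1 (F0C replicate 4), 44.8% at MAP7D1 (F0C replicate 3), 24.3% at DDHD2 (F0C replicate 5) and 18.9% on chromosome 17 at 7063945 (F0C replicate 5). Among conditioned males, F0EHC replicate 2 read 45% at PLXDC1, 28.6% at MACF1 and 63.8% on the deep contig of chromosome 1, F0EHC replicate 3 read 0% at MAP7D1, F0EHC replicate 1 read 50% at TM6SF2 and F0EHC replicate 4 read 57.9% at GNG12.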

How the results depend on the processing

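The even split of directions, the lower depth and the share inside regions held at isolation distances of 200 and 1000 bp and with at least 10 reads in every library. With at least 20 reads 305 isolated sites were kept, of which 83 were without overlap, 2 were stepwise, 80 lay inside a region and 30 had a lone bird at 0%, and the mean differences were 18.8 and -19.4 points. Pooled reads gave -20.5 points at lower sites. The count without overlap was 57 with a margin of 5 points and 28 with a margin of 10 points. Stepwise sites numbered 3 in narrower and 40 in wider windows. The share near 50% exceeded that of neighboured sites by 3.36 points at 200 bp, 3.25 points with at least 10 reads, 3.52 points with at least 20 reads and 4.37 points in wider windows, each with an exact permutation p under 0.05, while it was 2.15 points at 1000 bp (exact p = 0.102), 1.4 points in narrower windows (exact p = 0.0938) and 2.01 points against 1 site per locus (exact p = 0.0586). The share near 100% differed by 0.405 points against 1 site per locus. A lone bird at 0% was found at 82 sites when the others had to reach 10% and at 23 sites at 30%, alternatives chosen after seeing the data. By edgeR's likelihood ratio test 225 isolated sites were called, and 203 at an unadjusted p.

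With 1 bird left out, the differences ranged from 20.7 to 22.3 points at higher and from -22.0 to -21.3 points at lower sites, the share higher from 49.8% to 50.8%, the sites without overlap from 146 to 168, stepwise sites from 12 to 18, lone birds at 0% from 55 to 68, the share of birds that carry the difference from 69.2% to 71.0% (68.4% with all birds), the depth difference from -9.25 to -8.38 reads, the share near 100% from 0.771 to 1.0 points, the share near 50% from 2.38 to 3.68 points, and the deviation within groups from -0.0214 (without F0C replicate 4, where its sign turned) to 0.633 points. In edgeR 0 isolated sites were called each time. Fewer birds make separation and steps more frequent by construction. At the named sites 0 of 288 differences turned sign. At most of these sites a turn was not possible, so the count says little about how far the differences hold. Where the groups did not overlap, leaving out 1 bird cannot turn the sign. The same is true of BORA, SKP2, TM6SF2, GNG12 and BAG3, where every bird of the less methylated group read 0%. At 8 of the 32 named sites leaving out 1 bird moved the difference by over 1.5 times: to -14.9 points at MEIS1, 14.3 at BORA, -13.2 at SKP2, 3.84 at TM6SF2, 0 at GNG12, 4.52 at BAG3, -0.986 on the deep contig of chromosome 1 and -1.85 on chromosome 17 at 7063945.

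Replicate numbers are shared by the groups, but nothing in the labels pairs the birds. Deviations of same-numbered birds correlated at 0.171, -0.0121, 0.00784 and -0.0414. Only for replicate 1 was the bird of the same number the best match. These values alone cannot decide on pairing. With the replicate block 0 isolated sites were called in edgeR, with 185 at an unadjusted p under 0.05.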
